A study of Mus musculus with 62 samples.

Results

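The comparison was between the hippocampus of APP mice at 6 months and at 3 months, in 6 long-RNA libraries, 3 of each age, of the 62 libraries of the series. APP mice carry the App NL-G-F allele, a knock-in of humanised and mutated amyloid precursor protein sequence into the mouse App gene, so that the protein is made where and when the mouse gene is active. Each library came from the hippocampi of both hemispheres of 1 mouse. Per the series' design text, 3 months is a stage with very little plaque and 6 months the stage at which plaques and symptoms appear. WT mice (C57BL/6J, 2 libraries at 3 months, 3 at 6 months and 3 at 12 months) and APP mice of 12 months (3 libraries) are used below to place the values. They also entered the fit of 17 libraries, so they shared in the estimate of spread behind each limma p-value. WT mice of 3 and 6 months also entered a test of the difference between genotypes. Those WT mice also differed in sex-linked genes between 3 and 6 months, so age and sex cannot be told apart in them. The libraries were chosen by genotype and age alone, and no measured value entered that choice.

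The hippocampus holds the granule cells of the dentate gyrus, the pyramidal cells of the CA fields, inhibitory interneurons, and glia. Oligodendrocytes wrap axons in myelin, a membrane rich in a small set of proteins. Around amyloid plaques, microglia and astrocytes are known to switch on a set of immune and reactive genes. The thalamus, striatum and choroid plexus lie near the hippocampus, and a dissection may hold some of them, so their marker genes are given below. How much neighbouring tissue each library held was not measured. In whole tissue, fewer cells of a type and less RNA per cell cannot be told apart.

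Levels are given as scaled TPM, that is TPM (transcripts in proportion to all RNA measured, corrected for length) after each library was divided by 1 factor so that the typical gene was at the same level in every library. Changes are differences of log2(scaled TPM + 1), 6 minus 3 months, which understate the change of low genes. Of 18354 genes tested, 415 (2.26%) passed limma's test at a Benjamini-Hochberg adjusted p below 0.05. Of these, 219 (1.19%) were higher and 196 (1.07%) lower at 6 months, and the median change of all genes was -0.0019. The 2 ages did not overlap for 413 of the 415. Among all genes tested, the ages did not overlap for 10.3% in the higher and 10.1% in the lower direction. On TPM as deposited, 94.5% of 1301 calls were higher, against 52.8% in the scaled data. The share was 64.8% with scaling to protein-coding TPM and 64.2% with quantile normalisation.

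The number of calls rested on the spread borrowed from the other mice and on single libraries. With the 6 libraries alone, 2 genes were called, and with the 9 APP libraries 67. Without 6-month replicate 2 the count was 44, without 6-month replicate 3 it was 64, and without 3-month replicate 1 it was 214. Relative depth ran from 1.91 to 3.043 at 3 months and from 1.678 to 1.941 at 6 months, and protein-coding genes held 34.5% to 37.6% and 36.2% to 51.0% of TPM. Of the 57 called genes named here, 48 lost the call without 6-month replicate 2, 48 without 6-month replicate 3 and 25 without 3-month replicate 1. The 7 that kept it without each library were Cnp, Scn4b, Slc6a3, Pvalb, C1ql2, Tspan18 and Xist. The 3-month replicate 1 stood apart in markers of neighbouring tissue, and 6-month replicate 2 in microglial, complement and reactive astrocyte genes, as given with the results they touch.

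**Figure D1:**
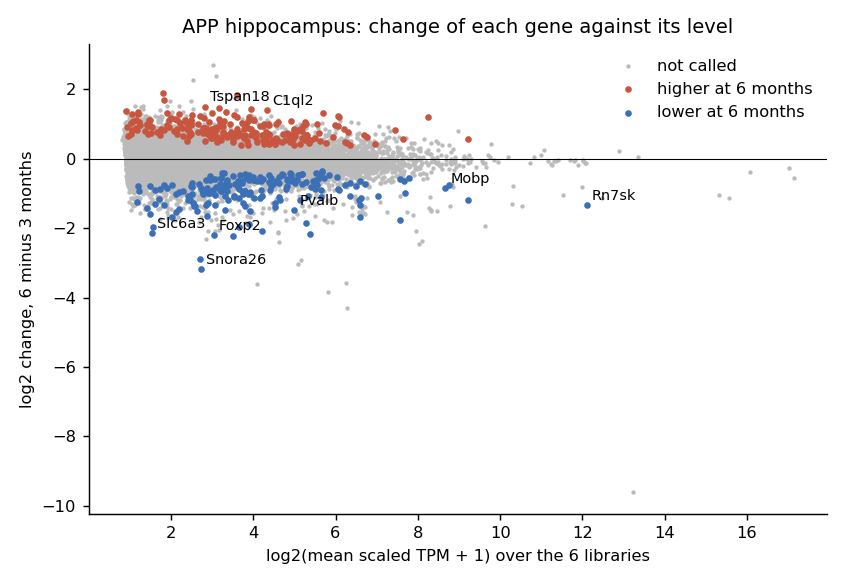
Log2 change of each of 18354 genes (y axis, 6 minus 3 months) against its mean level (x axis, log2 of scaled TPM + 1). Red points are the 219 genes called higher, blue points the 196 called lower, and grey points were not called.

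Myelin genes fell together. Of 16 listed myelin genes, all tested, 13 were lower at 6 months and none was higher, with a median log2 change of -1.06.

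In abundant myelin genes, every 3-month library was above every 6-month library. Mobp, a myelin-associated basic protein, was at 658, 436 and 477 scaled TPM at 3 months and at 307, 288 and 268 at 6 months (log2 change -0.84). Mbp, myelin basic protein, which holds the membrane layers together and was chosen after its values were seen, was at 346, 201 and 272 and then at 168, 135 and 105 (log2 change -0.99). Cnp, an enzyme of uncompacted myelin, was at 204, 127 and 196 and then at 98.5, 75.2 and 73.5 (log2 change -1.07, SE 0.162, limma adjusted p 0.00761), and its call was kept without any 1 of the 6 libraries. In each of these genes 3-month replicate 2 was the lowest of its age.

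Mal, a lipid-raft protein of myelin, fell from 131 ± 42.6 (SD, n = 3) to 55.4 ± 5.99 (SD, n = 3) scaled TPM. Mog, an outer myelin glycoprotein, fell from 48.3 ± 16.4 (SD, n = 3) to 20.1 ± 3.03 (SD, n = 3). Both changed by -1.18 on the log2 scale with a limma adjusted p of 0.013, and both lost the call without 6-month replicate 2 or 3. Across the 6 fits that each left out 1 library, between 2 and 14 myelin genes were called. The median change of the list in WT mice of the same ages was -0.46, and none of the 16 genes passed the test of the difference between genotypes. Enpp6, a marker of newly formed oligodendrocytes, fell by 1.49 on the log2 scale and was the called gene among 15 of the precursor and newly formed stages.

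Because the myelin genes moved together, the sequence just upstream of the start site is shown for 4 of them, and for C1ql2, a called granule cell gene described further on. The 250 bases before each start are from RefSeq (GRCm38.p6), 5′ to 3′ on the gene's strand. On the plus strand they lie on chromosome 9, 120149492 to 120149741 (Mobp), chromosome 11, 100574689 to 100574938 (Cnp), and chromosome 1, 120340332 to 120340581 (C1ql2). On the minus strand they lie on chromosome 17, 37023399 to 37023648 (Mog), and chromosome 2, 127656696 to 127656945 (Mal). Capitals mark matches on either strand to ACAAAG, a core of SOX factor binding sites, to GGGCGG, a GC box, to CCAAT or to TATAAA.
Mobp: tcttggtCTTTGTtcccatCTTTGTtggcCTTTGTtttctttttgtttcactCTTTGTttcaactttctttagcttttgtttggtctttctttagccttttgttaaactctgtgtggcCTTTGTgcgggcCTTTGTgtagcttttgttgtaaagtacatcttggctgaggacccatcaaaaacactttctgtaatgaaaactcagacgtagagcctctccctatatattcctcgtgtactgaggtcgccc
Cnp: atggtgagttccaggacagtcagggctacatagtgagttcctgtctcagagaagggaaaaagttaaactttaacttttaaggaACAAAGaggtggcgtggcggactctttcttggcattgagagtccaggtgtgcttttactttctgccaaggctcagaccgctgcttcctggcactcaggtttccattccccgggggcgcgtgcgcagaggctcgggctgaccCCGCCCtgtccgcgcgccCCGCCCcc
Mog: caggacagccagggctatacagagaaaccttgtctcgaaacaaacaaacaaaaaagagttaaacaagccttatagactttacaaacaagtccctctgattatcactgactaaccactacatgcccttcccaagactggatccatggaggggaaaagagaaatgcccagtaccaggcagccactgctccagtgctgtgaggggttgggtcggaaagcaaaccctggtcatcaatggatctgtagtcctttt
Mal: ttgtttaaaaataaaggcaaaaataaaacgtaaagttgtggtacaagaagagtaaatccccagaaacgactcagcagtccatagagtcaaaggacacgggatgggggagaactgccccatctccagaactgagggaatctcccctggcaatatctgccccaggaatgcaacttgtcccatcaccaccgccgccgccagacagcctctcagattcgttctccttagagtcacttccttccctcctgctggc
C1ql2: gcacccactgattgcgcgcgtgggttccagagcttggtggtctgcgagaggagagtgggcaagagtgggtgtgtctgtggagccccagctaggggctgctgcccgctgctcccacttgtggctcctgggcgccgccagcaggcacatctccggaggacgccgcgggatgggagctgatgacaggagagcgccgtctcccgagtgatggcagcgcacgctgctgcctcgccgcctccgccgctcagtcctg
The Mobp window held 6 matches to ACAAAG, and the Cnp window 1 match to ACAAAG and 2 to GGGCGG. The Mog, Mal and C1ql2 windows held none of the 4 motifs, so the myelin windows shown had no motif in common. Of the 12 myelin genes with an entry, 6 held ACAAAG, 5 CCAAT, 4 GGGCGG and 2 TATAAA. Of 32851 such windows, 16.5% held ACAAAG, 33.8% CCAAT, 32.7% GGGCGG and 12.4% TATAAA. The myelin counts are of genes with the motif in any of their windows, and these shares are of single windows, so they are unlike measures. A match describes the letters and is not evidence of binding.

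**Figure D2:**
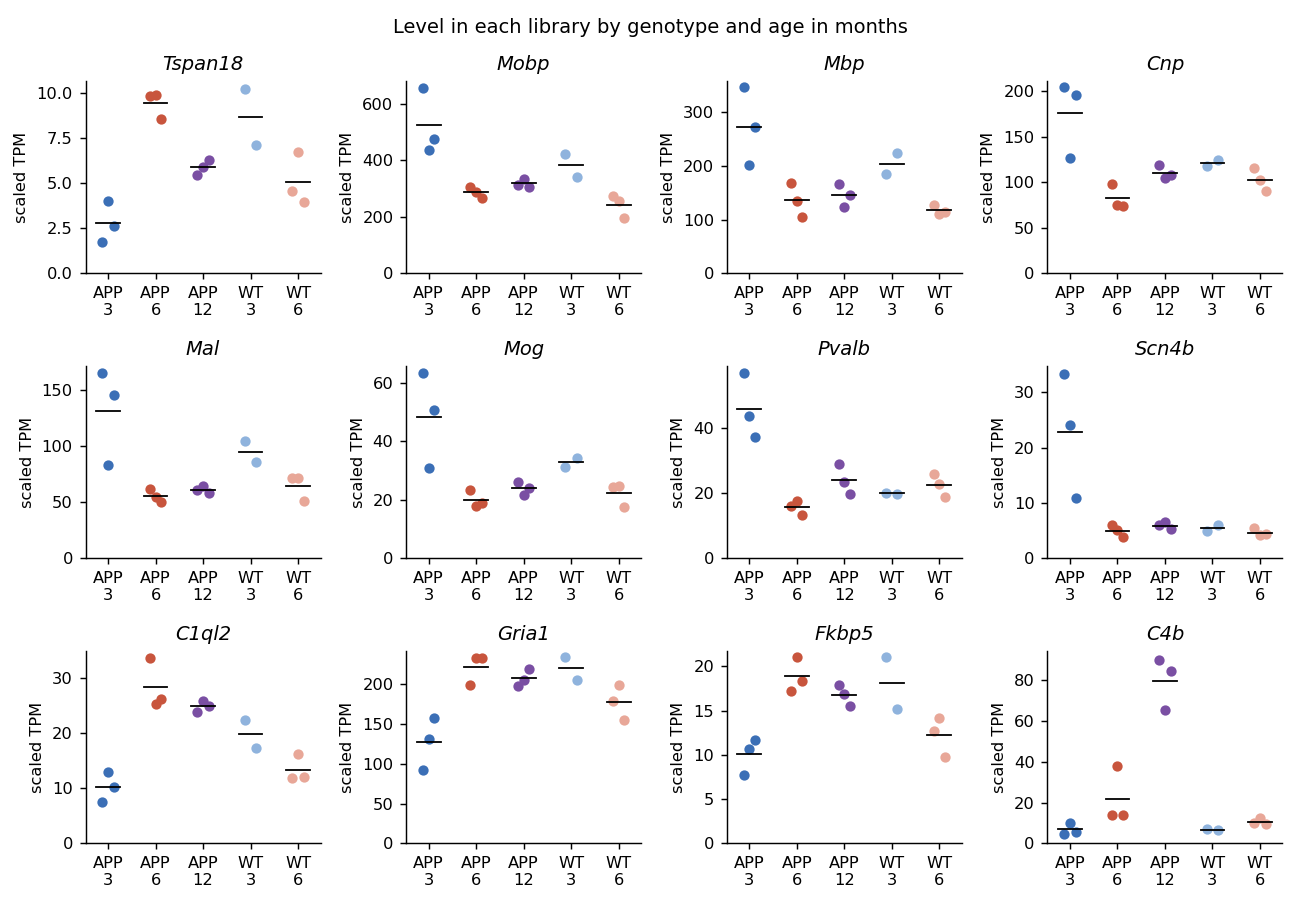
Scaled TPM (y axis) of 12 genes in each library, by genotype and age in months, with points for libraries and bars for group means. Mobp is at 436 to 658 in the 3-month APP libraries and at 268 to 307 in the 6-month APP libraries.

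Among markers of the thalamus and striatum, all called genes were lower at 6 months. The 10 thalamic genes had a median log2 change of -1.39, with 1 called, and the 10 striatal genes a median of -1.12, with 2 called. Foxp2, a transcription factor of thalamic and striatal neurons, was at 21.4, 10.8 and 5.78 scaled TPM at 3 months and at 2.85, 0.755 and 1.75 at 6 months. The ages did not overlap, and the log2 change was -2.19 (SE 0.391, limma adjusted p 0.014).

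Scn4b, a sodium channel beta subunit, was at 33.3, 24.1 and 10.9 scaled TPM and then at 6.05, 5.04 and 3.92 (log2 change -1.87). Scn4b kept its call without any 1 library. Replicate 1 of 3 months was the highest library for Foxp2 and Scn4b, and replicate 3 the lowest of that age.

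The summed thalamic markers were at 673.7, 245.4 and 91.74 scaled TPM in the 3-month libraries and at 205.5, 60.76 and 63.12 in the 6-month libraries. The sums overlapped between ages, and 3-month replicate 1 was the highest of the 6. Prkcd, a kinase gene strongly expressed in the thalamus, did not pass the test (190, 46.5 and 11.5 against 46.5, 8.81 and 5.23), nor did Tnnt1 (23.3, 10.2 and 0.725 against 2.78, 0 and 0). Both were chosen after their values were seen.

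The summed choroid plexus markers were at 3231, 902.8 and 846.6 scaled TPM at 3 months and at 1215, 112.8 and 834.5 at 6 months. None of the 13 passed the test, and their median was -0.96. Ttr, the thyroid hormone carrier made by the choroid plexus, ran from 532 to 2252 at 3 months and from 27.1 to 843 at 6 months. The part of neighbouring tissue in the changes of myelin and neuronal genes was not tested.

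**Figure D3:**
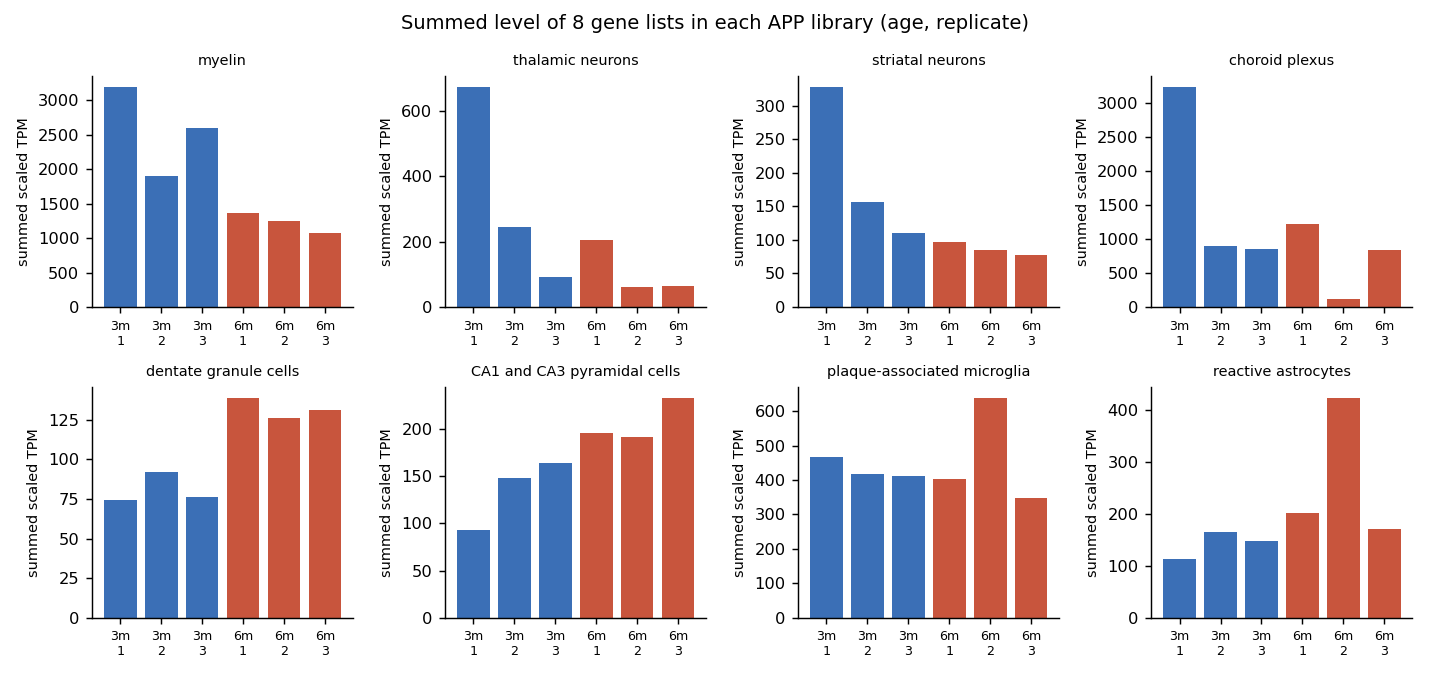
Summed scaled TPM (y axis) of 8 gene lists in the 6 APP libraries (x axis, age and replicate). Thalamic markers are highest in 3-month replicate 1 at 673.7, and plaque-associated microglia genes are highest in 6-month replicate 2 at 639.5.

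Slc6a3, Th and Pmch, low neuronal genes, were higher in the 3-month APP libraries than in all 14 other mouse libraries. Their 6-month means were 0.025, 0.44 and 0.20 scaled TPM, so they passed the filter of 1 TPM through the 3-month libraries. In WT mice of 3 months Slc6a3 was at 0 and 0, Th at 0.0863 and 0.593, and Pmch at 0.151 and 0. In APP mice Slc6a3, the dopamine transporter, was at 5.65, 3.74 and 1.91 scaled TPM at 3 months. At 6 months it was listed at 0 in 2 of the 3 libraries, with 0.0751 in the other. Its log2 change was -2.14 (SE 0.268, limma adjusted p 0.00455), and the call was kept without any 1 library. Th, the rate-limiting enzyme of dopamine synthesis, was at 4.68, 2.90 and 1.95 and then at 1.21, 0 and 0.11. Pmch, the precursor of melanin-concentrating hormone, a hypothalamic peptide, was at 5.44, 3.67 and 2.15 and then at 0.60, 0 and 0. The calls of Th and Pmch depended on the pseudocount. With 0.1 in place of 1, the limma adjusted p was 0.114 for Th and 0.0752 for Pmch, and 0.0357 for Slc6a3. Of the other called genes named here, Cnih2 (0.051), Thra (0.0508) and Snora3 (0.0777) had limma adjusted p-values above the threshold with that pseudocount. Th also lost its call without 3-month replicate 1, and both Th and Pmch without 6-month replicate 2 or 3.

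In the list of GABA synapse and interneuron genes, 2 of 23 were called, both lower, and the median log2 change was -0.17. The ages did not overlap for 4 of the 23 in the higher and 5 in the lower direction. Among all genes tested these shares were 10.3% and 10.1%. The list held genes of both directions. Pvalb, the calcium buffer of fast-spiking interneurons, was at 56.9, 43.8 and 37.4 scaled TPM at 3 months and at 16.2, 17.5 and 13.3 at 6 months. The ages were far apart, and the log2 change was -1.48 (SE 0.188, limma adjusted p 0.00455). Gabrd, the delta subunit of extrasynaptic GABA-A receptors, fell by 1.498 on the log2 scale and lost its call without 3-month replicate 1 or 6-month replicate 2 or 3. In WT mice, where age and sex cannot be told apart, Pvalb changed by 0.15. The difference between genotypes was -1.64 (limma adjusted p 0.0181). WT libraries were at 19.9 and 20.2 at 3 months and at 19.0 to 26.0 at 6 months, so that the 3-month APP libraries were above all of these.

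Other called genes of large fall were Pcp4, a calmodulin regulator, at 571, 175 and 158 and then 116, 50.1 and 69.5 scaled TPM, and Pdp1, a mitochondrial phosphatase, at 250, 104 and 86.4 and then 64.5, 29.8 and 34.9. In both, 3-month replicate 1 was the highest library. Vamp1, a synaptic vesicle protein, fell by 0.89 on the log2 scale although the ages overlapped.

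Among other abundant called genes were 3 that fell and 1 that rose. Ckb, the brain creatine kinase, was at 593, 525 and 502 scaled TPM at 3 months and at 400, 290 and 286 at 6 months. Tubb4a, a tubulin of neurons and oligodendrocytes, was at 240, 246 and 255 and then at 178, 141 and 159. Mdh1, the cytosolic malate dehydrogenase, fell by 0.56 on the log2 scale. Thra, a thyroid hormone receptor, was higher at 6 months, from 160 ± 38.5 to 236 ± 12.1 (SD, n = 3 each). The ages did not overlap for any of these 4 genes.

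Among markers of hippocampal neurons, all called genes were higher. Of 8 dentate granule cell markers, 2 were called, both higher, and the median log2 change was 0.80. Of 9 tested CA1 and CA3 markers, 2 were called, both higher, with a median of 0.58. C1ql2, a secreted synaptic organiser of granule cells, was at 7.42, 12.9 and 10.2 scaled TPM at 3 months and at 33.5, 25.2 and 26.1 at 6 months. The lowest 6-month library was above the highest 3-month library. The log2 change was 1.41, with SE 0.211 and a limma adjusted p of 0.00755.

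C1ql2 kept its call without any 1 library. In WT mice, where age and sex cannot be told apart, it changed by -0.54. The difference between genotypes was 1.95 (limma adjusted p 0.0171). Tspan18, a tetraspanin membrane protein, was at 1.71, 4.03 and 2.64 and then at 9.84, 9.86 and 8.58 scaled TPM, and its log2 change of 1.504 also held without any 1 library. Trpc6, a cation channel, rose by 1.10 and Fibcd1, a CA1 marker, by 1.11 on the log2 scale. Both lost the call without 6-month replicate 2 or 3, and Fibcd1 also without 3-month replicate 1.

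Glutamate receptor genes moved in both directions, with 4 of 26 higher and 1 lower. Gria1, a subunit of AMPA receptors, was at 92.7, 131 and 157 scaled TPM at 3 months and at 199, 232 and 233 at 6 months (log2 change 0.83, limma adjusted p 0.0164). Grik4, a kainate receptor subunit, rose by 0.69, and the AMPA receptor auxiliary subunits Cacng8 and Cnih2 rose by 0.87 and 0.63. Gria4, an AMPA subunit of interneurons, fell by 0.71. The 3-month replicate 1 was the lowest library for Gria1, Cacng8 and Cnih2.

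Another gene of large rise was Cpne6, a calcium sensor of dendritic spines (41.7 ± 16.9 to 92.0 ± 11.9 scaled TPM, SD, n = 3 each). Ddn, a postsynaptic protein, rose from 198 ± 97.0 to 410 ± 19.9. Smoc2, Itga8, Cabp7, Il16, Fbxo34, Glis3 and Cerkl rose by 1.46, 1.35, 1.33, 1.27, 1.85, 1.22 and 1.33 on the log2 scale, and each lost its call when at least 1 library was left out. The part of tissue composition in these rises was not tested.

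**Figure D4:**
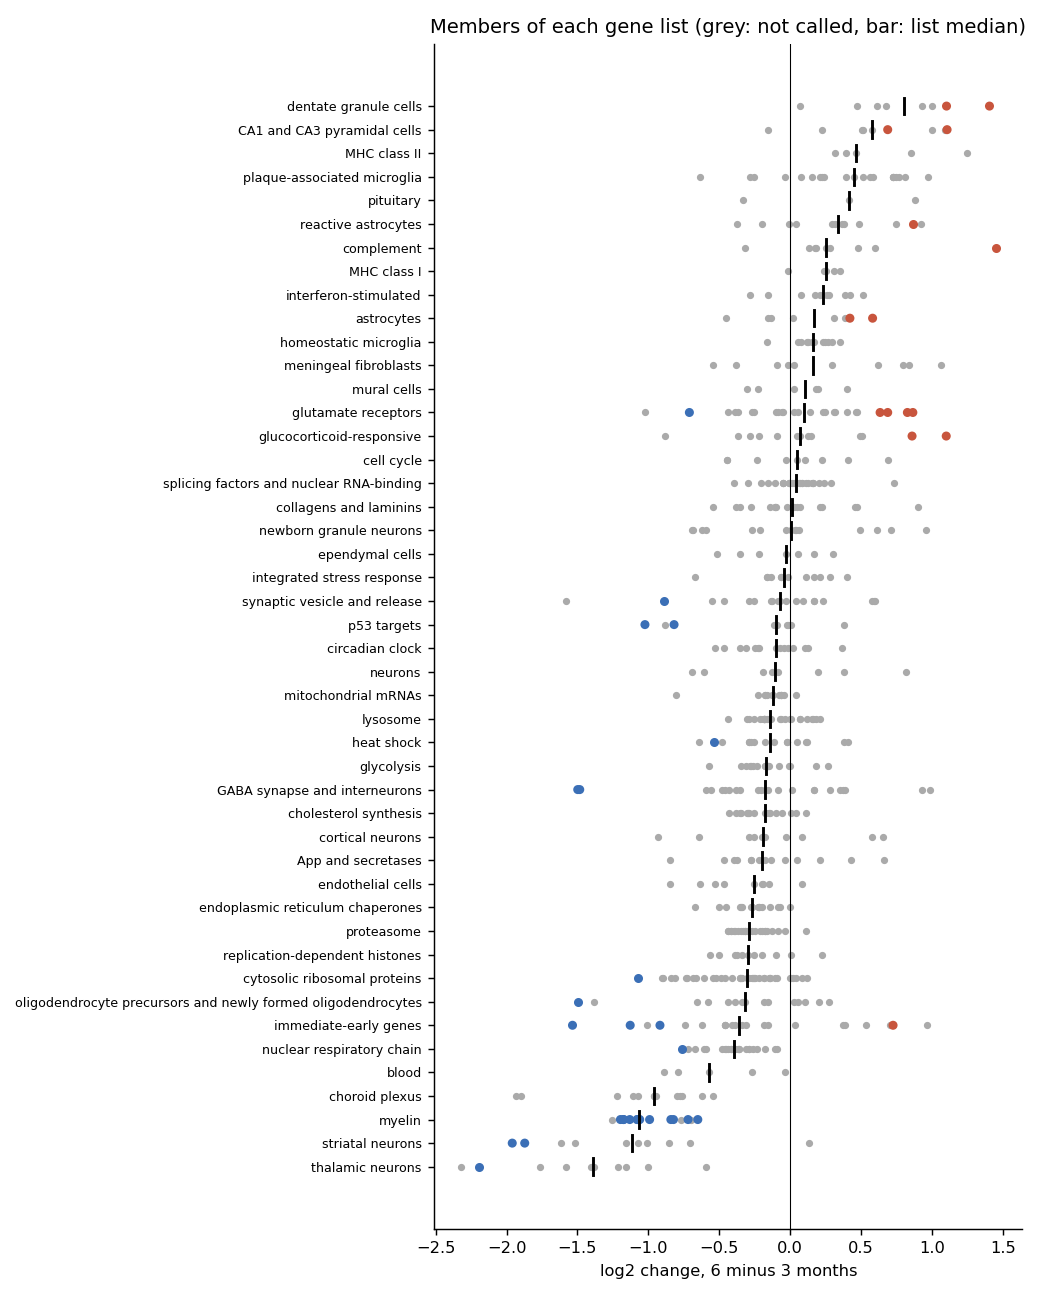
Log2 change (x axis, 6 minus 3 months) of each tested member of 46 gene lists (y axis), with called genes in red (higher) or blue (lower) and a bar at the list median. The medians run from -1.39 for thalamic markers to 0.80 for dentate granule cell markers.

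Plaque-associated microglia genes did not pass the test. Of 26 listed genes 21 were tested, none was called, and their median log2 change was 0.45. Cst7, a cystatin of plaque microglia, was at 0.158, 1.39 and 0.0861 scaled TPM at 3 months and at 0.652, 8.83 and 0 at 6 months. Tyrobp, the adaptor of the Trem2 receptor, was at 5.75, 7.81 and 9.12 and then at 8.36, 24.3 and 7.61. Replicate 2 was the high library of 6 months for both, and both genes were chosen after their values were seen. In APP mice of 12 months, Cst7 was at 25.4 to 36.0 and Tyrobp at 35.6 to 58.6.

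C4b, a complement component, was the called gene of 9 tested in its list, at 4.60, 10.2 and 5.79 and then at 13.97, 37.7 and 13.9 scaled TPM (log2 change 1.45, SE 0.307, limma adjusted p 0.0279). The ages did not overlap, but the call was lost without 6-month replicate 2 or without 3-month replicate 1. C4b has a near-identical copy, so reads may be divided between copies. Serpina3n, a protease inhibitor of reactive astrocytes, was the called gene of 12, rising from 8.65 ± 1.89 to 16.6 ± 3.31 scaled TPM (SD, n = 3 each). Its 3-month APP libraries were below all 14 other mouse libraries. In WT mice Serpina3n was at 15.8 and 17.5 at 3 months and at 14.1 to 24.8 at 6 months. The call held without 3-month replicate 2 and was lost without any other 1 of the compared libraries. Gfap, the astrocyte filament protein, chosen after its values were seen, was at 67.6, 122 and 109 and then at 148, 354 and 118, and did not pass (limma adjusted p 0.119).

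Of the astrocyte markers, 2 of 8 were higher, and both are glutamate transporters. Slc1a2 rose from 477 ± 91.8 to 708 ± 68.8 and Slc1a3 from 106 ± 15.6 to 141 ± 5.50 scaled TPM (SD, n = 3 each). None of the 12 homeostatic microglia genes was called, and P2ry12, a purine receptor of resting microglia, was at 12.9 to 18.3 and then at 14.8 to 20.4. None of the 5 tested MHC class II genes was called. Cd74, the invariant chain, was at 0.943 to 1.17 at 3 months and at 2.00, 10.1 and 2.31 at 6 months.

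Immediate-early genes, which neurons switch on within minutes of activity, gave 3 lower and 1 higher call of 22. Of all genes tested, 1.07% were called lower and 1.19% higher. The summed list was at 298.6, 765.6 and 798.5 scaled TPM at 3 months and at 418.8, 459.3 and 501.2 at 6 months. The sums overlapped, with 3-month replicate 1 the lowest library. Across the fits that each left out 1 compared library, between 0 and 7 of these genes were called. Fos, an AP-1 subunit, was at 15.8, 26.8 and 21.8 scaled TPM at 3 months and at 8.22, 8.94 and 10.1 at 6 months (log2 change -1.13, limma adjusted p 0.0275). Egr2, a zinc finger transcription factor, fell by 1.53, and Dusp1, a MAP kinase phosphatase, by 0.92. Fos lost its call without 3-month replicate 2 or any 1 of the 6-month libraries. When 1 compared library was left out, Egr2 kept its call only without 3-month replicate 1, and Dusp1 only without 3-month replicate 3. Jun, the partner of Fos, rose by 0.73, from 18.9 ± 2.81 to 31.7 ± 0.872. Its call was lost without 3-month replicate 1 or 6-month replicate 2 or 3. The sources used here do not say at what time of day the mice were killed.

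Genes that glucocorticoids induce gave 2 higher calls of 13, but the list median was only 0.073 on the log2 scale. The ages did not overlap for 3 of the 13 in the higher and 1 in the lower direction, against 10.3% and 10.1% of all genes tested. Fkbp5, a co-chaperone of the glucocorticoid receptor, was at 7.79, 10.7 and 11.7 and then at 17.2, 21.1 and 18.4 scaled TPM (log2 change 0.86, limma adjusted p 0.0164). Zbtb16, a transcription factor, rose by 1.10. Of 10 p53 targets, Gadd45a fell by 1.02 and Phlda3 by 0.82 on the log2 scale. Dnajb1, an Hsp40 co-chaperone, fell by 0.54 and was the called gene of 16 heat shock genes.

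Lists of short, abundant housekeeping transcripts had medians below 0 in APP mice and above 0 in WT mice, with few calls. The 26 nuclear respiratory chain genes had a median log2 change of -0.40 in APP and 0.25 in WT, with 1 call, and the 39 cytosolic ribosomal protein genes -0.31 and 0.38, with 1 call. Ndufb3, a complex I subunit, was at 56.9, 52.2 and 59.9 and then at 33.1, 34.0 and 30.9 scaled TPM. Rps27, a small-subunit protein, was at 10.96, 11.2 and 15.2 and then at 6.13, 4.33 and 5.66. Over all protein-coding genes, the median change was -0.353 for the 254 genes whose longest transcript was under 750 bases and 0.0408 for the 2044 of at least 6000 bases. In WT the medians were 0.263 and -0.0736. The part of transcript length in these list medians was not tested.

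App itself was not called (278 ± 34.5 to 228 ± 20.1 scaled TPM, SD, n = 3 each, log2 change -0.28, limma adjusted p 0.499). Hsf1, the master regulator of heat shock genes, was at 10.5 to 15.4 and then at 10.6 to 14.1 (log2 change -0.02, limma adjusted p 0.962). Some small nuclear and nucleolar RNAs, chosen after their values were seen, had larger changes. The snoRNA and snRNA classes of the annotation as a whole did not, with a median log2 change of -0.0836 for 396 snoRNA genes and 0.0996 for 179 snRNA genes. Of these snRNA genes 1 was called higher and 0 lower, so Rn7sk, called lower, is not among them. Snora26, a guide RNA of ribosomal RNA modification, was at 8.03, 17.1 and 7.81 and then at 0.162, 0.305 and 0.255 scaled TPM. Snora3, of the same class, was at 10.4, 12.4 and 8.77 and then at 0.668, 0.751 and 0.257. Both passed the filter of 1 TPM through the 3-month libraries. Rn7sk, the RNA that holds back a transcription elongation factor, was at 5942, 5178 and 7386 and then at 3528, 2925 and 1351.

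The called genes were also placed among all mouse libraries. Of the 196 lower calls, 101 had all 3-month APP libraries above all 14 other mouse libraries, and 22 had all 6-month APP libraries below all others. Of the 219 higher calls, 101 had the 3-month libraries below all others, and 19 had the 6-month libraries above all others. Over all tested genes these counts were 308, 109, 229 and 78. The 3-month APP group also entered the comparison, so these counts describe levels and are no test.

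The age change differed between APP and WT for 273 genes (1.49%), of which 123 were also called in APP. In WT mice 25 genes were called between 3 and 6 months. In that comparison Xist, the RNA of the inactive X chromosome, was at 102 to 110.4 deposited TPM at 3 months and 0.215 to 0.4384 at 6 months, and the Y-linked Ddx3y was at up to 0.02738 and then at 19.31 to 20.5. In all 6 APP libraries Xist was at 74.77 deposited TPM or more and Ddx3y at 0.0652 or less. Within APP, Xist was also called higher at 6 months, from 70.0, 87.3 and 78.5 to 115, 130 and 136 scaled TPM (log2 change 0.69, SE 0.103, limma adjusted p 0.00755). In WT, age and sex cannot be told apart.

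The short-RNA libraries of the same groups gave counts along the B2 element, a repeat transcribed by RNA polymerase III whose RNA is cut during stress responses. Total B2 counts were 1673, 2355 and 924 at 3 months and 1436, 1095 and 1511 at 6 months. Of 34 positions tested with edgeR's quasi-likelihood test, 0 (0%) were called, 2 had an unadjusted p below 0.05, and DESeq2 called 0.

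The share of B2 counts beyond position 20 was 82.49%, 85.90% and 84.85% at 3 months and 89.21%, 83.11% and 82.20% at 6 months. Exact 95% binomial intervals, which cover counting error only, were 80.58% to 84.28% for the first library and 87.49% to 90.76% for 6-month replicate 1, the highest. The group means were 84.41% ± 1.75 and 84.84% ± 3.81 (SD, n = 3 each), and a two-sided exact permutation test gave p = 0.9, where the smallest possible p is 0.1. The ages overlapped. Beyond position 40 the difference was -5.02 percentage points in place of 0.424.

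**Figure D5:**
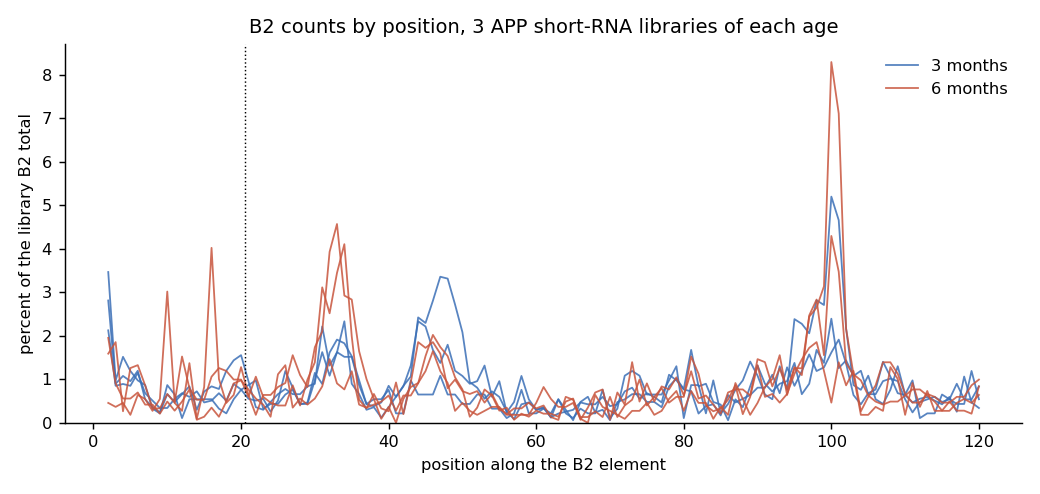
Percent of each library's B2 total (y axis) at each position along the B2 element (x axis) in 3 APP short-RNA libraries of each age, with a dotted line after position 20. The lines of the 2 ages cross throughout, and 0 of 34 tested positions were called.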

How the data were processed

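Long RNA of the hippocampus was sequenced after ribosomal RNA depletion, per the labels' protocols. Per the submitters' processing notes, the tools were FastQC, cutadapt 1.18, BWA 0.7.17, HISAT2 2.1.0, bedtools 2.26.0 and StringTie 1.3.4d, on mm10 (GRCm38). Per the file headers, the authors deposited TPM, FPKM and a coverage signal per gene, 1 table per library. The ratio of deposited coverage to FPKM gave relative depth. The authors deposited B2 counts per position, not normalized, for each short-RNA library.

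TPM was summed per gene identifier, scaled by median of ratios over 17 mouse libraries and tested as log2(TPM + 1) with limma 3.58.1 (R 4.3.3, trend and robust) in 1 fit with 6 groups, where the 6 libraries compared had on average 1 TPM or more. B2 counts, at positions with a mean of at least 10, were tested with edgeR 4.0.16 with the B2 total as library size, so a rise at 1 position lowers the shares of the others. Shares were compared by exact permutation (scipy 1.17.1). The tests were checked on simulated data. The B2 simulation was revised after a first version called lowered shares false and a second asked for more recovery than the counts allow. Recovery depended on the size of the change, so small changes of a position can be missed. Labels do not tie replicate numbers of the 2 ages to each other, so no pairs were taken. The limma and edgeR p-values use a spread between mice estimated over all 6 groups, not over the 6 libraries compared alone. The comparison, lists and members were chosen with earlier results of these data known. Genes named are the 12 largest rises and falls with non-overlapping ages, the 5 most abundant in each direction, up to 4 called members of a list, and for lists with none the most abundant. Exceptions are named in the text. Some genes are not reported here.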

Additional observations from a re-analysis of the deposited data

Results flagged for a closer look

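The genes here had an age change in APP that differed from that in WT by the test of the difference itself (limma, adjusted p below 0.05). WT mice of 3 and 6 months also differed in sex-linked genes, which cannot be told apart from age there. The APP minus WT difference on the log2 scale was positive for Tspan18 (2.18), C1ql2 (1.95), Zbtb16 (1.86), Il16 (1.84), Fibcd1 (1.62), Fkbp5 (1.39), Gria1 (1.14) and Jun (1.00). It was negative for Pmch (-2.43), Slc6a3 (-2.27), Pvalb (-1.64), Rps27 (-1.42), Hist1h1c (-1.14), Ndufb3 (-1.09), Gria4 (-1.05) and Rn7sk (-2.03). Hbb-bs, a beta globin of blood, differed by -2.03, with a change of 1.46 in WT and of -0.57 in APP. Xist differed by 6.73, with a change of -6.04 in WT and of 0.69 in APP.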

How the results depend on the processing

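The count of 415 calls was 1301 on TPM as deposited, 188 without the filter on low TPM, 174 with array weights, 67 with the 9 APP libraries, 2 with the 6 APP libraries alone and 9 with the 11 libraries of 3 and 6 months, the last chosen after seeing the data. Leaving out 1 compared library gave 44 to 598. With a replicate block the count was 328, of which 298 were also called without it. Deviations of same-numbered libraries correlated at 0.227, 0.158 and 0.064, and those of different numbers at -0.184 to 0.0293, all below the same-numbered values. The main fit took no pairs because the labels do not tie the numbers of the 2 ages to each other. Whether same-numbered libraries share a batch was not tested. The count of genes differing between genotypes, 273, was 7942 on TPM as deposited, 511 with a mean TPM of at least 5 and 470 with the replicate block, and 27 to 512 when 1 library was left out. Leaving out a WT library of 3 months gave 27 (replicate 2) or 40 (replicate 1). Leaving out the first WT library of 6 months gave 42, and leaving out APP replicate 2 or 3 of that age gave 85 or 78. The B2 count stayed at 0 under TMM factors, DESeq2, no minimum count, the replicate block and each left-out library. The B2 share difference was -5.02 beyond position 40, and -1.76 to 1.74 when 1 library was left out. The change of App was 0.0328 on TPM as deposited. That of Hsf1 was 0.27 on TPM as deposited, 0.0437 with scaling to protein-coding TPM, 0.0294 with quantile normalisation, 0.0117 with a mean TPM of at least 5, and -0.144 to 0.108 when 1 library was left out (0.0906 without 6-month replicate 1). Of the 57 called genes named, 7 kept the call without each compared library, 48 lost it without 6-month replicate 2 and 48 without 6-month replicate 3. The cause was not tested.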

Other observations

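Gm47299, a predicted miRNA gene singled out after its values were seen, was at 27270, 0.378 and 29960 scaled TPM in the 3-month libraries and at 0.285, 0.408 and 0.288 in the 6-month libraries, and was not called (limma adjusted p 0.372). The value in 3-month replicate 2 was near those of 6 months. Among genes of the annotation class TEC, 24 were called higher and 1 lower of 1057 tested, and among snoRNA genes 2 higher and 6 lower of 396. Over all genes tested, 2.26% were called, 1.19% higher and 1.07% lower. The snoRNA calls, both directions together, were near that share.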
